A study of Mus musculus with 4 samples.

Results

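The genes described here decide what becomes of pyruvate at the end of glycolysis. They are the lactate dehydrogenase subunit genes Ldha and Ldhb, the lactate carriers Slc16a1 and Slc16a3 with their chaperone Bsg, and 5 genes of pyruvate entry into mitochondria and its oxidation, Pdk1, Pdk3, Pdha1, Mpc1 and Mpc2. The 10 genes were named as a list by symbol. All 10 were found among the 32285 genes in the files, of which 24669 had at least 1 UMI (unique molecular identifier, a counted transcript) in the cells kept.

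Lactate dehydrogenase is a tetramer of subunits A and B that turns pyruvate into lactate and back, restoring the NAD that glycolysis needs. Lactate leaves or enters cells with a proton through monocarboxylate transporters, while pyruvate bound for oxidation crosses the inner mitochondrial membrane and meets the pyruvate dehydrogenase complex, which kinases switch off by phosphorylation. Several of these genes are known targets of hypoxia-inducible factor, and growth cartilage, which has no vessels, is a classic tissue of glycolytic metabolism.

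Single-cell RNA was counted in dissociated cells of the mouse hindlimb's presumptive knee joint, taken from cartilage anlagen and digested with collagenase. There were 4 libraries, 1 per condition. Controls without Cre were taken at embryonic days E13.5 and E14.5, and both mutant libraries at E14.5. One mutant library, titled G1KO, has the genotype Prx1cre;Glut1f/f;Glut3f/+, and the other, titled dKO and here called DCKO, has Prx1cre;Glut1f/f;Glut3f/f. Prx1cre acts in limb mesenchyme, so muscle, blood, vessel and immune cells of the mutants lie outside the lineage in which it acts. The study's methods give a minimum of 3 embryos per genotype for its experiments in general, but how many went into a library is not stated.

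The libraries held 12769 (E13.5 control), 9707 (E14.5 control), 11690 (G1KO) and 11602 (DCKO) cell barcodes. Of these, 12446, 9305, 11264 and 11305 cells were kept, with medians of 6176.5, 7279, 6757 and 6379 UMIs. Any pair of libraries shared 25 to 40 barcodes, at most 0.381% of a library. Levels are given as CPM, the gene's UMIs summed over a cell class and scaled to a common total of all UMIs in that class, with a 95% Poisson interval. A log2 ratio comes with an exact binomial 95% interval. With 1 library per condition, these intervals cover counting error only, and no difference could be tested across embryos. A gene was called higher or lower when its CPM differed by at least 1.5-fold (0.58 on the log2 scale) and either sum held at least 10 UMIs. Since counts are of transcript 3′ ends, levels are compared between cells and not between genes.

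Cells were sorted into classes by marker UMIs, and 8 of the classes were pooled as skeletal cells. Among the 8 were Gdf5-positive cells (at least 1 UMI of Gdf5, the classic gene of the joint interzone) and Matn1-positive chondrocytes (at least 2 UMIs each of Matn1 and Acan). The others were Matn1-low chondrocytes, maturing chondrocytes with Ihh or Col10a1, tendon, osteogenic cells, Dcn-positive fibroblasts and Sfrp2-positive mesenchyme. Gdf5-positive cells numbered 2342, 1286, 1422 and 843 in the E13.5 control, E14.5 control, G1KO and DCKO libraries, and Matn1-positive chondrocytes 763, 3625, 3512 and 4191. Markers held out of the gates were above the median of the other classes for at least 2 of 3 genes in each class, though in several classes 0 of 3 were highest there. These were Sfrp2-positive mesenchyme and myogenic progenitors in every library, Matn1-positive chondrocytes in all but G1KO, Matn1-low chondrocytes in the E14.5 control and G1KO, and Dcn-positive fibroblasts in DCKO. Cells gated as glial carried Col2a1, a cartilage collagen, at 108%, 95.5%, 108% and 109% of the chondrocyte level, so they are not called glial and were left out of the skeletal pool.

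The deleted genes went against their labels in part. Slc2a1, the gene of Glut1, stood in skeletal cells at 52.6 CPM in the E13.5 control, 68.5 in the E14.5 control, 369 in the library labelled G1KO and 438 in the one labelled DCKO. It was thus higher, not lower, where it should be deleted, with log2 ratios to control of 2.43 and 2.68. Slc2a3, the gene of Glut3, stood at 5.25, 3.47, 4.30 and 2.19 CPM, and its log2 ratio to control was 0.31 in G1KO and -0.67 in DCKO. In DCKO the skeletal classes lay below control except Dcn-positive fibroblasts. These were at 2.59 (1.48 to 3.90), with 8 UMIs in the control and 40 in DCKO. Which exons the floxed alleles lose is not stated in the labels, and 3′ counts outside a deleted part would not show the deletion. The results below therefore describe libraries by their labels. With 1 library per genotype, none could be left out.

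The libraries also differed in sex genes. Xist, expressed from an inactive X chromosome, had a UMI in 64.7% of cells of the E13.5 control, 0.172% of the E14.5 control, 92.2% of G1KO and 91.2% of DCKO, and Y-linked genes in 18.4%, 65.9%, 0.0355% and 0.0265%. Both mutants are thus compared with a male control, and genotype and sex cannot be told apart for any gene. The E13.5 control carried RNA of both kinds, so the control ages differ in sex as well, and age and sex cannot be told apart either. Pdk3 and Pdha1 lie on the X chromosome. The median log2 ratio of X-linked genes in skeletal cells was -0.20 in DCKO against -0.19 for autosomal genes, and -0.07 against -0.08 in G1KO.

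Ldha encodes the A subunit, the form known to favour making lactate. In Matn1-positive chondrocytes it stood at 1516 CPM in the E13.5 control, 1384 in the E14.5 control, 1437 in G1KO and 1569 in DCKO. In Gdf5-positive cells it stood at 1317, 1206, 989 and 957 CPM in the same order, and in Sfrp2-positive mesenchyme at 744, 941, 707 and 705. Chondrocytes were the highest class in every library, and the mutants were above the E14.5 control in Matn1-positive chondrocytes but below it in the other 2 classes. Outside cartilage, Dcn-positive fibroblasts held 420.2, 480.1, 431 and 472 CPM, and osteogenic cells 592, 519, 437 and 404.

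Ordered by Ldha level, the E14.5 control ran from maturing chondrocytes (1601 CPM, interval 1559 to 1645) through Matn1-positive chondrocytes (1384) to Gdf5-positive cells (1206) and Matn1-low chondrocytes (1193). The last 2 did not differ beyond their intervals. Tendon (983) and Sfrp2-positive mesenchyme (941) overlapped as well, as did osteogenic cells (519) and fibroblasts (480.1), and erythroid cells came last at 197. The span between highest and lowest class was 6.18-fold in the E13.5 control, 8.14-fold in the E14.5 control, 3.42-fold in G1KO and 3.88-fold in DCKO. In the mutants the lowest class was not the erythroid one but fibroblasts (431 CPM) in G1KO and osteogenic cells (404) in DCKO. In both, the interval of the lowest class overlapped that of erythroid cells. Erythroid Ldha was 197 CPM in the control, 474 in G1KO and 408 in DCKO, while Col2a1 in the same cells, a sign of free RNA from other cells, went from 9.87% of the chondrocyte level to 34.5% and 29.4%. The part of free RNA in this was not tested.

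Ldhb encodes the B subunit, the form known to favour use of lactate. Its level in Matn1-positive chondrocytes was 437 CPM in the E13.5 control, 266 in the E14.5 control, 244 in G1KO and 229.7 in DCKO. In Gdf5-positive cells the levels were 394, 243, 275 and 261 CPM, and in Sfrp2-positive mesenchyme 347, 225, 237 and 247. The E13.5 control was the highest library in each of these classes, and the mutants lay below the E14.5 control in Matn1-positive chondrocytes and above it in both other classes. In the E14.5 control the highest class was osteogenic, at 339 CPM (305 to 375). Matn1-low chondrocytes, Matn1-positive chondrocytes, fibroblasts and Gdf5-positive cells followed between 269.7 and 243 CPM, each overlapping the next. Muscle, vessel, blood and macrophage classes were lower, from 105 CPM in myogenic progenitors down to 26.5 in endothelial cells.

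The balance between the subunits can be read as the share of Ldha in the UMIs of both genes. In Matn1-positive chondrocytes that share was 77.6% in the E13.5 control, 83.9% in the E14.5 control, 85.5% in G1KO and 87.2% in DCKO. In Gdf5-positive cells it was 77.0%, 83.2%, 78.2% and 78.6%, and in Sfrp2-positive mesenchyme 68.2%, 80.7%, 74.9% and 74.1%. From E13.5 to E14.5 the control share was higher in all of these classes, and in the mutants it was higher still in chondrocytes but back toward the E13.5 value in the others. Among skeletal classes maturing chondrocytes had the largest shares, at 80.7%, 88.9%, 89.5% and 92.2%, whereas osteogenic cells kept near 60% in every library (59.4%, 60.5%, 61.2% and 60.4%). Outside the skeletal pool, macrophages (88.0%, 96.0%, 93.5% and 93.2%) and differentiating muscle (88.1%, 93.1%, 93.2% and 92.7%) lay above maturing chondrocytes in each library. In DCKO, however, their intervals overlapped that of maturing chondrocytes (91.6% to 92.7%).

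**Figure D1:**
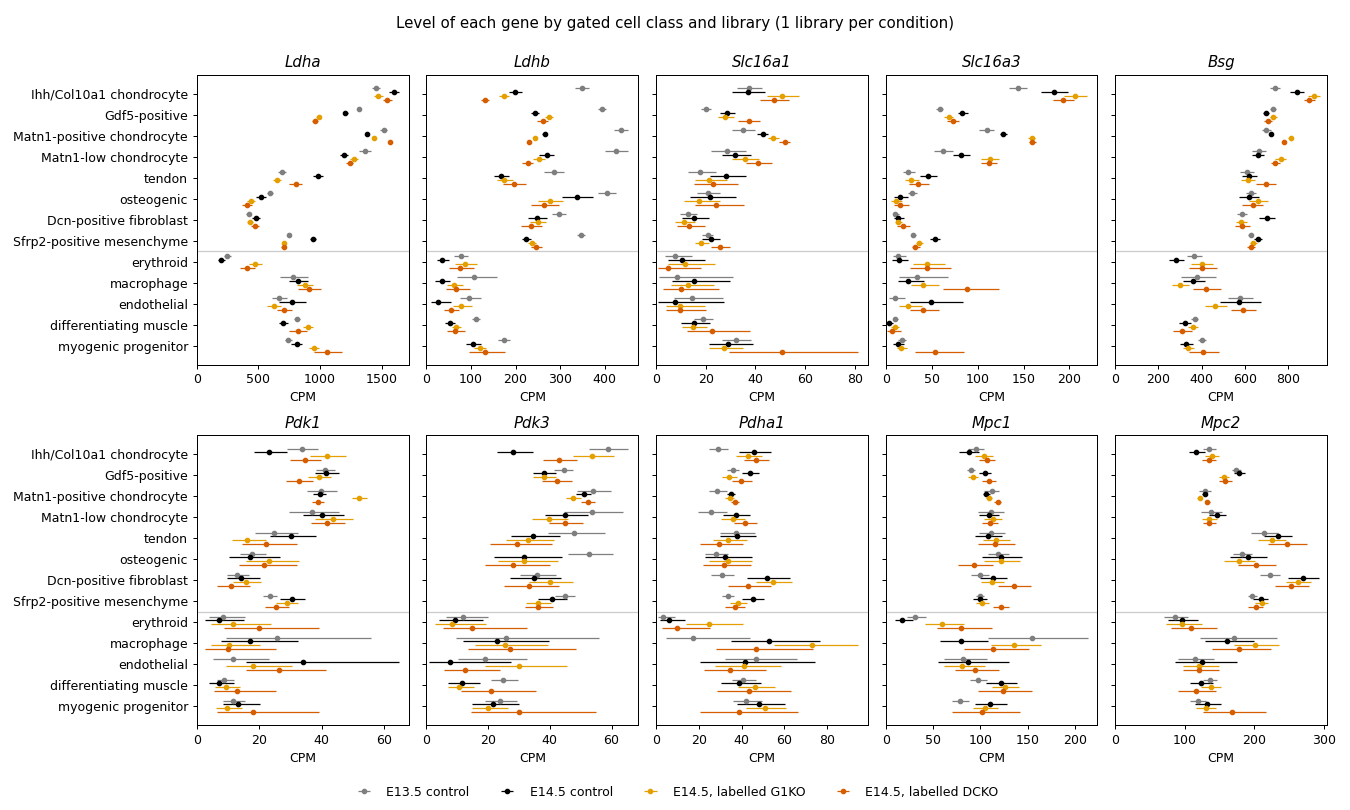
Level of each of the 10 genes (x axis, CPM) in 13 cell classes (y axis), with 1 point per library and 95% Poisson intervals of the counts as bars. Ldha, Slc16a1 and Slc16a3 are highest in chondrocyte classes in every library, and Mpc2 is highest in Dcn-positive fibroblasts, at 270.0 CPM in the E14.5 control.

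Slc16a3 encodes MCT4, the low-affinity carrier known for lactate export from glycolytic cells. Its levels in maturing chondrocytes were 144 CPM in the E13.5 control, 183 in the E14.5 control, 206 in G1KO and 193 in DCKO, and in Matn1-positive chondrocytes 109.7, 128, 159 and 159. In Gdf5-positive cells they were 58.7, 83.6, 68.7 and 72.8, and in Sfrp2-positive mesenchyme 30.2, 53.3, 36.4 and 32.4. The mutants were above the E14.5 control in both of these chondrocyte classes and below it in Gdf5-positive and Sfrp2-positive cells, as was Ldha except in maturing chondrocytes. Of the 10 genes Slc16a3 had the widest span among classes in the E14.5 libraries, while at E13.5 its span of 14.03-fold was hardly wider than the 13.88-fold of Pdha1. In the E14.5 control maturing chondrocytes held 48.4-fold the level of differentiating muscle (3.79 CPM), a value that rests on 7 UMIs in the muscle cells. In the E14.5 control, Gdf5-positive cells and Matn1-low chondrocytes (82.3 CPM) did not differ beyond their intervals, nor did Sfrp2-positive mesenchyme, endothelial cells (49.2) and tendon (45.6).

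Slc16a1 encodes MCT1, the widespread carrier that moves lactate either way. In Matn1-positive chondrocytes it stood at 35.0 CPM in the E13.5 control, 43.0 in the E14.5 control, 47.2 in G1KO and 51.8 in DCKO. In Gdf5-positive cells it stood at 20.1, 28.6, 27.9 and 37.3 CPM, and in fibroblasts at 12.8, 15.2, 11.2 and 13.2. The DCKO library was the highest in both of the first 2 classes, while the fibroblast values lay close together. Slc16a3 made up 75.8%, 74.8%, 77.1% and 75.5% of the UMIs of both carriers in Matn1-positive chondrocytes, a share that hardly differed between libraries. In Sfrp2-positive mesenchyme its share was 59.3%, 70.8%, 66.7% and 55.8%, and in muscle 35.5%, 27.5%, 38.3% and 41.5%.

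Bsg encodes basigin, the membrane glycoprotein that both carriers need to reach the cell surface. It was the most even of the lactate genes, at 675, 708, 763 and 757 CPM in the skeletal cells of the E13.5 control, E14.5 control, G1KO and DCKO libraries. In maturing chondrocytes it reached 739, 843, 919.5 and 899 CPM, and in muscle 382, 326, 350.0 and 344. Maturing chondrocytes were its highest class in each library, 2.03-fold to 3.07-fold above the lowest.

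Pdk1 and Pdk3 encode kinases that inactivate pyruvate dehydrogenase, and Pdk1 is a known target of hypoxia-inducible factor. In Matn1-positive chondrocytes Pdk1 stood at 39.8 CPM in the E13.5 control, 39.3 in the E14.5 control, 52.0 in G1KO and 38.8 in DCKO. G1KO alone stood out in this class, with a log2 ratio to control of 0.40 (0.30 to 0.50), short of 1.5-fold. In Gdf5-positive cells Pdk1 was 41.1, 41.4, 39.2 and 32.6 CPM, where DCKO was the lowest. In the controls Gdf5-positive cells were the highest class for Pdk1, though in the E14.5 control Matn1-positive chondrocytes and Matn1-low chondrocytes lay within the interval of Gdf5-positive cells (37.7 to 45.4). At E13.5 Gdf5-positive cells and Matn1-positive chondrocytes did not differ beyond counting error either, with a log2 ratio of 0.05 (-0.15 to 0.25). Pdk3 in Matn1-positive chondrocytes was 54.1, 50.9, 47.6 and 52.4 CPM, with intervals that overlapped except between G1KO and DCKO. In maturing chondrocytes it was 58.8 in the E13.5 control, 28.2 in the E14.5 control, 53.8 in G1KO and 43.1 in DCKO, so the E14.5 control, with 166 such cells, was the low library. Pdk1 in that class was also lowest in the E14.5 control, at 33.6, 23.1, 41.7 and 34.6 CPM.

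Pdha1 encodes the catalytic alpha subunit of the complex that turns pyruvate into acetyl-CoA. Its skeletal levels were 32.6 CPM in the E13.5 control, 38.9 in the E14.5 control, 36.4 in G1KO and 38.3 in DCKO. In Gdf5-positive cells they were 36.0, 43.9, 34.2 and 39.8, and in Matn1-positive chondrocytes 28.7, 35.1, 34.4 and 37.0. The E13.5 control was the lowest library in skeletal cells and in Matn1-positive chondrocytes, and G1KO was the lowest in Gdf5-positive cells. Gdf5-positive cells were above Matn1-positive chondrocytes in both controls, by log2 ratios of 0.32 (0.09 to 0.56) at E13.5 and 0.32 (0.17 to 0.48) at E14.5.

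Mpc1 and Mpc2 encode the pair of subunits that together form the mitochondrial pyruvate carrier. Mpc1 was nearly flat over skeletal cells, at 99.6, 105, 106 and 116 CPM in the E13.5 control, E14.5 control, G1KO and DCKO libraries. Mpc2 in fibroblasts was 222, 270.0, 263 and 253 CPM, in tendon 214, 233, 225 and 247, in Gdf5-positive cells 174, 178, 156 and 158, and in Matn1-positive chondrocytes 129, 128, 121 and 132. Fibroblasts were thus its highest class and erythroid cells its lowest in each library, and no chondrocyte class lay in the upper part of the order. In the E14.5 control each neighbour in the order of Mpc2 overlapped the next. The share of Mpc1 in the UMIs of both subunits was 46.4%, 45.3%, 47.4% and 47.2% in Matn1-positive chondrocytes and 30.9%, 29.5%, 30.0% and 34.9% in fibroblasts.

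The comparison of control ages asks how the genes differ as the joint forms between E13.5 and E14.5. In skeletal cells Slc16a1 rose by 0.61 log2 units (0.51 to 0.70; 23.3 to 35.6 CPM) and Slc16a3 by 0.85 (0.79 to 0.91; 57.7 to 104 CPM). These 2 of 10 members were called higher and 0 lower, where 10.9% of 16721 genes were called higher and 18.8% lower. As a mean over skeletal classes the log2 ratio was smaller, 0.25 for Slc16a1 and 0.34 for Slc16a3, under 1.5-fold. Matn1-positive chondrocytes made up 6.13% of the kept E13.5 cells and 39.0% of the E14.5 cells, and the part of this mix in the pooled values was not tested. Within classes, Slc16a3 was higher at E14.5 in 7 of the 8 skeletal classes, from 0.22 in Matn1-positive chondrocytes to 0.82 in Sfrp2-positive mesenchyme and 0.90 in tendon, and lower only in osteogenic cells, at -0.91 (-1.74 to -0.17) with 17 UMIs at E14.5.

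Ldhb was lower at E14.5, at a log2 ratio of -0.56 (-0.59 to -0.54) in skeletal cells, just short of the call, and -0.60 as a mean over skeletal classes, past it. Unlike the carriers it was lower in each of 13 classes, by -0.72 in Matn1-positive chondrocytes, -0.70 in Gdf5-positive cells, -0.63 in Sfrp2-positive mesenchyme and -0.80 in maturing chondrocytes. Ldha was higher in the skeletal pool, at 0.24, yet lower within Matn1-positive chondrocytes (-0.13) and Gdf5-positive cells (-0.13) and higher in Sfrp2-positive mesenchyme (0.34). The X-linked Pdha1 was higher in each of the 8 skeletal classes, from 0.02 in tendon to 0.75 in fibroblasts, and Pdk3, also X-linked, lower in each, from -0.05 in fibroblasts to -1.06 in maturing chondrocytes, although the pooled Pdk3 value of -0.08 turned positive under trimmed-mean (TMM) scaling. Over the 10 members the median was 0.16, against -0.15 for all genes tested. Bsg (0.07), Pdk1 (0.24), Mpc1 (0.07) and Mpc2 (-0.18) completed the set, and the sign of Mpc2 turned when classes were weighted equally.

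The comparison of Gdf5-positive cells with Matn1-positive chondrocytes sets cells with Gdf5 RNA beside cartilage cells of the same control. The gate needs only 1 Gdf5 UMI, which 4.55% of the blood, macrophage, vessel and muscle cells of the E13.5 control and 3.002% of those of the E14.5 control carried too, against 19.5% and 14.2% of all kept cells, so the class is not purely interzone. Slc16a1 and Slc16a3 were lower in Gdf5-positive cells at both ages. Slc16a1 differed by -0.80 (-1.03 to -0.56) at E13.5 and -0.59 (-0.77 to -0.41) at E14.5, and Slc16a3 by -0.90 (-1.04 to -0.77) and -0.61 (-0.72 to -0.51). Of the 10 members 2 were called lower and 0 higher at each age, where 7.96% of genes at E13.5 and 8.46% at E14.5 were called lower and 22% and 21.3% higher. At E14.5 both stood close to the threshold: Slc16a1 came to -0.58 with a stricter cell filter, and Slc16a3 to -0.57 as a mean over cells, each short of the call.

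The other members differed by less. Ldha was -0.20 at both ages and Ldhb -0.15 and -0.13, although the sign of Ldhb at E13.5 turned when cells were thinned to equal depth before gating. Mpc2 was higher in Gdf5-positive cells, at 0.43 (0.32 to 0.54) and 0.47 (0.39 to 0.55), and Pdk3 lower, at -0.28 and -0.42. Bsg (0.06 and -0.04) and Pdk1 (0.05 and 0.07) lay near 0 and changed sign under TMM scaling, apart from Bsg at E14.5. Mpc1 was -0.32 in the younger control and -0.02 in the older. The members' medians were -0.18 and -0.09, against 0.12 and 0.15 over all genes.

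Both mutants were compared with the same E14.5 control, so their values are set side by side and not counted as repeats. In pooled skeletal cells 0 of 10 members were called in either mutant. Across all genes 5.44% were called higher and 14.9% lower in DCKO, and 5.55% higher and 5.91% lower in G1KO. In DCKO the largest members' values were Slc16a1 at 0.33 (0.25 to 0.40) and Slc16a3 at 0.31 (0.26 to 0.35), and in G1KO Pdk1 at 0.22 (0.14 to 0.30) and Slc16a3 at 0.15 (0.10 to 0.20), the last of which turned negative as a mean over cells or over classes. Pooled Slc16a3 in DCKO combines classes on both sides of control, with -0.72 in Sfrp2-positive mesenchyme and 0.32 in Matn1-positive chondrocytes. Median log2 ratios of the members were 0.09 in DCKO and -0.01 in G1KO, against -0.19 and -0.08 over all genes.

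Most other pooled values were small. Ldha was 0.09 in DCKO and -0.09 in G1KO, and the DCKO value turned negative as a mean over cells or over skeletal classes. Ldhb was -0.15 and -0.05, Mpc2 -0.06 and -0.04, all of which turned positive under TMM scaling. That scaling moved all genes by 0.18 in DCKO and by 0.08 in G1KO. Slc16a1 in G1KO was 0.05 (-0.03 to 0.14). Bsg was 0.10 and 0.11, Mpc1 0.14 and 0.02, Pdk3 0.08 and -0.04, and Pdha1 -0.02 and -0.10. The signs of Pdk3 in G1KO and of Pdk1 (-0.04) and Pdha1 in DCKO also turned under TMM scaling.

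By label, DCKO and G1KO differ in the other Glut3 allele. None of the members was called there either (0 of 10), where 3.77% of genes were higher and 11% lower. Slc16a1 was higher in DCKO, at 0.27 (0.20 to 0.35), as were Ldha at 0.18 (0.17 to 0.19) and Slc16a3 at 0.16 (0.11 to 0.20). Pdk1 was lower, at -0.26 (-0.33 to -0.18), most clearly in Matn1-positive chondrocytes, at -0.42 (-0.52 to -0.32). The remaining members lay between -0.10 (Ldhb) and 0.13 (Mpc1).

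The pooled values hide opposite values in different skeletal classes. Ldha was lower in Gdf5-positive cells of both mutants, with log2 ratios to control of -0.33 (-0.38 to -0.29) in DCKO and -0.29 (-0.32 to -0.25) in G1KO, and in Sfrp2-positive mesenchyme, at -0.42 and -0.41. Tendon (-0.29 in DCKO and -0.60 in G1KO) and osteogenic cells (-0.36 and -0.25) lay on the same side. In Matn1-positive chondrocytes Ldha was higher instead, at 0.18 (0.16 to 0.20) in DCKO and 0.05 (0.04 to 0.07) in G1KO, where the sign of the smaller value turned with thinned gating or as a mean over cells. Within these classes Ldha did not reach 1.5-fold, except in tendon of G1KO.

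Slc16a3 was also lower in some classes and higher in others. It was lower in Sfrp2-positive mesenchyme, at -0.72 (-0.96 to -0.48) in DCKO, which was called, and -0.55 (-0.76 to -0.34) in G1KO, and in Gdf5-positive cells, at -0.20 (-0.36 to -0.04) and -0.28 (-0.42 to -0.14). It was higher in Matn1-positive chondrocytes, at 0.32 and 0.31, and in Matn1-low chondrocytes, at 0.45 and 0.46. It did not go with Ldha in every class: in maturing chondrocytes it was 0.08 in DCKO and 0.17 in G1KO where Ldha was below control, and in osteogenic cells (17 and 15 UMIs in the mutants) 0.05 (-1.01 to 1.11) and -0.50 (-1.61 to 0.59). In fibroblasts, with 32 and 42 UMIs, it was 0.41 (-0.36 to 1.19) and -0.04. Ldhb went the other way, with 0.10 and 0.18 in Gdf5-positive cells, 0.13 (0.04 to 0.23) and 0.08 (-0.02 to 0.17) in Sfrp2-positive mesenchyme, and -0.21 and -0.12 in Matn1-positive chondrocytes. The signs given here for Ldha, Ldhb and Slc16a3 in Gdf5-positive and Sfrp2-positive cells held in all 8 alternatives computed, but the sizes did not. Slc16a3 in Gdf5-positive cells of DCKO ran from -0.76 with stricter gates to -0.06 under TMM scaling, which is near 0.

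The other members were less consistent between mutants or classes. Slc16a1 was higher in Gdf5-positive cells of DCKO, at 0.38 (0.14 to 0.62), and in Matn1-positive chondrocytes, at 0.27 (0.17 to 0.36). Mpc1 was higher in Sfrp2-positive mesenchyme of DCKO, at 0.28 (0.14 to 0.43). Pdk1 was lower in Gdf5-positive cells of DCKO, at -0.35 (-0.58 to -0.11), with -0.08 in G1KO. Pdha1 was lower in Gdf5-positive cells, at -0.14 (-0.36 to 0.07) in DCKO and -0.36 (-0.55 to -0.16) in G1KO, and in Sfrp2-positive mesenchyme, at -0.30 (-0.54 to -0.06) and -0.23 (-0.45 to -0.01), beside 0.07 and -0.03 in Matn1-positive chondrocytes. The DCKO value in Gdf5-positive cells came to 0 under TMM scaling. Mpc2 was slightly lower in Gdf5-positive cells of both mutants, at -0.17 (-0.28 to -0.07) in DCKO and -0.19 (-0.28 to -0.09) in G1KO.

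Few members were called within skeletal classes. In Gdf5-positive cells 0 of 10 passed 1.5-fold in either direction in DCKO and in G1KO, where 21.3% and 12.6% of all genes did. This count depended on the gates: with each gate 1 UMI or 1 marker stricter 3 of 10 passed in DCKO, Ldha at -0.65, Slc16a3 at -0.76 and Slc16a1 at 0.71, beside 23.3% of genes under those gates. In G1KO 1 passed with thinned gating or as a mean over cells, beside 15% and 14.4%. In Sfrp2-positive mesenchyme 1 of 10 did in DCKO, Slc16a3, and 0 in G1KO, beside 14.2% and 10.9% of genes (1 in G1KO as a mean over cells, beside 12.9%). In Matn1-positive chondrocytes 0 of 10 did in both, beside 21.7% and 13.3%. In maturing chondrocytes 3 of 10 did in DCKO and 2 in G1KO, beside 32% and 21% of genes. In tendon 0 did in DCKO and 3 in G1KO, all lower, beside 22.1% and 16.8%. These were Ldha, Slc16a3 at -0.71 (-1.20 to -0.24) and Pdk1 at -0.91 (-1.55 to -0.30), the last from 66 UMIs in the control and 35 in G1KO. With the original gates only the count in tendon of G1KO is a larger share than among all genes, and no alternatives were computed for tendon or maturing chondrocytes. The remaining skeletal classes had 0 called in either mutant, beside 19.4% of genes in DCKO and 14.7% in G1KO for Matn1-low chondrocytes, 20% in both for osteogenic cells, and 18.4% and 15.1% for fibroblasts.

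**Figure D2:**
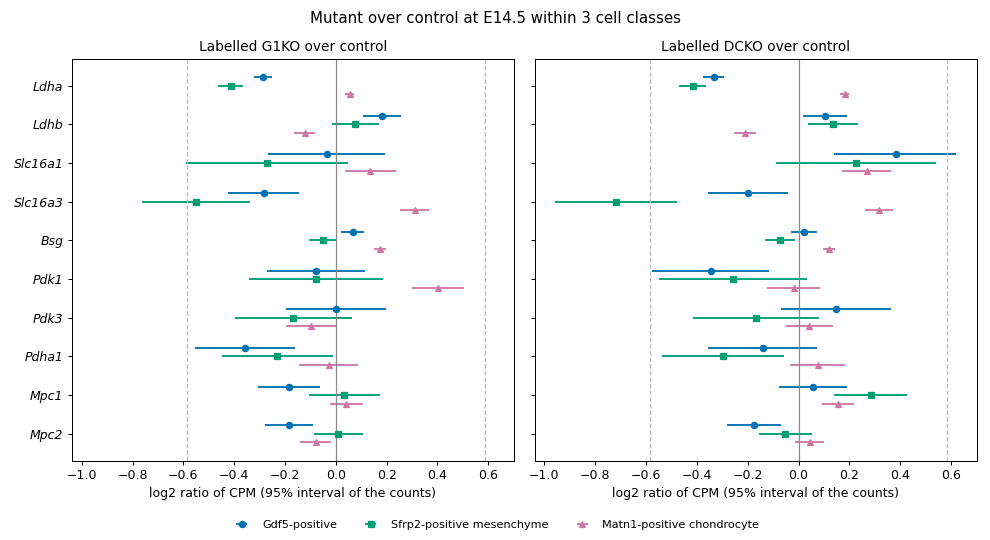
Log2 ratio of each gene's CPM in the mutant to the E14.5 control (x axis) for each gene (y axis) in 3 cell classes, for the libraries labelled G1KO (left) and DCKO (right). Bars are 95% intervals of the counts and dashed lines mark 1.5-fold. Ldha and Slc16a3 lie left of 0 in Gdf5-positive and Sfrp2-positive cells and right of 0 in Matn1-positive chondrocytes, where Ldha in G1KO, at 0.05, turned sign in 2 alternatives.

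The Gdf5-positive class itself differed between libraries. Its 3 markers held out of the gate were lower in DCKO than in the E14.5 control, with Osr2 at 199.9 CPM in the control, 176 in G1KO and 74.2 in DCKO, Creb5 at 247, 241 and 132, and Tgfbi at 386, 279.7 and 160. In DCKO Creb5 was no longer highest in this class. The part of this in the members' values was not tested.

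Gdf5-positive cells are not all alike, and a division by chondrocyte gate, chosen after seeing the data, separates them. Those that also passed a chondrocyte gate were 29.5% of the class in the control, 36.6% in G1KO and 46.4% in DCKO. Among them Ldha stood at 1187 CPM in the control, 1105 in G1KO and 1121 in DCKO, and Slc16a3 at 90.7, 89.1 and 93.2. Ldha in them was slightly lower in both mutants, at -0.10 (-0.15 to -0.05) in G1KO and -0.08 (-0.14 to -0.03) in DCKO. The intervals of both Slc16a3 ratios included 0. Gdf5-positive cells without a chondrocyte gate (906, 902 and 452 cells) held Ldha at 1222, 860.5 and 683 CPM, and Slc16a3 at 77.9, 46.0 and 38.9 CPM.

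It was thus in cells without a chondrocyte gate that both mutants lay furthest below control. Ldha there was at -0.51 (-0.56 to -0.45) in G1KO and -0.84 (-0.91 to -0.76) in DCKO, and Slc16a3 at -0.76 (-0.99 to -0.54) and -1.003 (-1.32 to -0.70). The share of all genes past 1.5-fold was not computed for these cells, so whether the values stand out cannot be said. Pdha1 was lower too, at -0.56 and -0.47, as was Pdk1, at -0.37 (-0.64 to -0.09) and -0.39 (-0.74 to -0.04). Ldhb was higher, at 0.31 and 0.34, from 221 CPM in the control to 273 and 279.6. In the control, Ldha was about as high in Gdf5-positive cells without a chondrocyte gate as in those with one. Col2a1 in the cells without the gate was 622 CPM in the control, 887 in G1KO and 1181 in DCKO, so the mutant cells carried more RNA of this cartilage gene. The part of this in the Ldha and Slc16a3 values was not tested.

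Maturing chondrocytes differed from the Matn1-positive class. Ldhb in them was 199.9 CPM in the E14.5 control, 174 in G1KO and 132 in DCKO, with log2 ratios of -0.20 (-0.35 to -0.05) and -0.60 (-0.76 to -0.45). Pdk1 was higher in both mutants, at 0.85 in G1KO and 0.59 in DCKO, and Pdk3 at 0.93 and 0.61, against a control in which both genes were below their E13.5 values. The calls in this class were those of Pdk1 and Pdk3 in both mutants and of Ldhb in DCKO. Ldha in the class was close to control, at -0.12 and -0.05.

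Muscle, outside the Prx1cre lineage, was not flat either. Ldha in muscle was 785 CPM in the E13.5 control, 753 in the E14.5 control, 926 in G1KO and 902 in DCKO, with log2 ratios to the E14.5 control of 0.30 (0.23 to 0.37) and 0.26 (0.15 to 0.37). Slc16a3 in muscle was 13.49, 8.17, 13.1 and 22.9 CPM. The DCKO value rests on 22 UMIs, 18 of them in 30 myogenic progenitors, while differentiating muscle held 6.41 CPM on 4 UMIs. Both mutants were above the E14.5 control for both genes, in only 89 muscle cells in DCKO. For Slc16a3 the log2 ratios in muscle were 0.68 in G1KO and 1.49 in DCKO. Slc2a1 was higher there as well, at 25.4 CPM in the control, 53.7 in G1KO and 91.8 in DCKO. Col2a1 in myogenic progenitors was 9.15%, 10.99% and 16.4% of the chondrocyte level in the same libraries, and in differentiating muscle 3.002%, 7.76% and 5.61%. Its part in these values was not tested. Endothelial cells lay below control instead, for Ldha at -0.31 in G1KO and -0.13 in DCKO, and for Slc16a3 at -0.996 and -0.29. Slc16a3 was higher in macrophages, at 0.73 and 1.85, and in erythroid cells, at 1.68 in both. These Slc16a3 values rest on at most 36 UMIs per library and class.

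Other genes of lactate and pyruvate use were described from lists of the same pathways. Of 15 citrate cycle enzymes tested, 0 passed 1.5-fold in skeletal cells of either mutant, between control ages, or between Gdf5-positive cells and Matn1-positive chondrocytes. Across all genes 5.44% were called higher and 14.9% lower in DCKO, 5.55% and 5.91% in G1KO, and 10.9% and 18.8% between ages. For Gdf5-positive cells against Matn1-positive chondrocytes, 22% were called higher and 7.96% lower at E13.5, and 21.3% and 8.46% at E14.5. The other pyruvate dehydrogenase subunits (4 tested) and the other kinases and phosphatases of the complex (5 tested) likewise had 0 past 1.5-fold in pooled skeletal cells of either mutant. Within the Gdf5-positive, Sfrp2-positive and Matn1-positive classes, the subunit gene Dlat was called lower in Gdf5-positive cells of DCKO, at -0.62 (-0.93 to -0.31). This was 1 of the 4 subunit genes, beside 21.3% of all genes called there in either direction. In Matn1-positive chondrocytes of DCKO, 2 of the 5 kinases and phosphatases were called lower, Pdk2 at -0.72 and Pdpr at -0.75, and 1 higher, Pdk4, with only 15 and 6 UMIs. Of all genes 21.7% were called in either direction there. In G1KO 0 of either list were called in these classes. The share of all genes called there was 12.6% in Gdf5-positive cells, 10.9% in Sfrp2-positive mesenchyme and 13.3% in Matn1-positive chondrocytes. Pdk2, a kinase of the same family, was higher in Gdf5-positive cells than in Matn1-positive chondrocytes, at 1.02 (E13.5) and 0.66 (E14.5).

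Among 7 other pyruvate enzymes, Gpt2, which makes alanine from pyruvate in mitochondria, stood out. In skeletal cells it was 6.15 CPM in the E14.5 control, 13.6 in G1KO and 21.8 in DCKO. It rose in both mutants, by 1.14 (0.97 to 1.31) and 1.83 (1.67 to 1.99) log2 units. It was called in Gdf5-positive cells and Matn1-positive chondrocytes of both mutants too, but not in Sfrp2-positive mesenchyme, at 0.35 (-0.16 to 0.87) and 0.23 (-0.32 to 0.79). In pooled skeletal cells of the mutants the only other call in that list was Me3, a malic enzyme, at -0.97 in DCKO, while calls of Me3 and Gpt within classes rest on at most 43 UMIs. Of all genes in pooled skeletal cells 5.44% were called higher and 14.9% lower in DCKO, and 5.55% and 5.91% in G1KO. The shares called within classes are those given above. Between control ages Me1 was called higher, at 0.65, and Me2 lower, at -0.67, beside 10.9% and 18.8% of all genes. Among 10 genes of the malate-aspartate and glycerol phosphate shuttles, Got1, the cytosolic aspartate aminotransferase, rose in DCKO by 1.10 log2 units to 28.9 CPM in pooled skeletal cells, where 0 were called in G1KO. Within classes it was called in Matn1-positive chondrocytes of DCKO, at 1.29, and the remaining calls there, of Gpd1 and Gpd1l in Gdf5-positive or Sfrp2-positive cells of both mutants, rest on at most 28 UMIs. Between control ages Slc25a13 and Gpd1 were called lower, at -0.81 and -0.91, which is 2 of the 10, beside 18.8% of all genes. In Gdf5-positive cells against Matn1-positive chondrocytes 1 of the list was called higher at E13.5, Gpd1l, and 2 at E14.5, Gpd1 and Gpd1l, on at most 39 UMIs. Among all genes 22% and 21.3% were called higher there.

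The other carriers and dehydrogenases were scarce. Of 6 other genes, of monocarboxylate carriers, chaperones and the lactate receptor Hcar1, 5 were tested in DCKO. Slc16a6 was called higher (1.09, from 0.792 to 1.68 CPM) and Slc16a13 lower (-0.62, with only 40 and 28 UMIs), beside 5.44% and 14.9% of all genes. In G1KO 1 of 5 was called higher, Hcar1, with 9 and 18 UMIs, beside 5.55% of all genes. Between control ages 2 of 4 were called lower, Slc16a6 at -1.05 and Slc16a13 at -1.68, beside 18.8% of all genes. In Gdf5-positive cells against Matn1-positive chondrocytes 1 of 4 was called higher at E13.5 and 2 of 4 at E14.5, beside 22% and 21.3%. In Sfrp2-positive mesenchyme 1 of 3 was called lower in DCKO and 1 of 4 in G1KO. In Matn1-positive chondrocytes 1 of 3 was called higher in DCKO and 2 of 4 in G1KO. In Gdf5-positive cells 0 of 3 were called in either mutant. The shares of all genes called within classes are those given above. Of 3 other lactate dehydrogenase genes only Ldhd was tested, with 17 UMIs in the control and 12 in DCKO, at -0.61 (-1.81 to 0.54). As a reference, 10 known targets of hypoxia-inducible factor had 4 called higher in skeletal cells of DCKO and 4 of G1KO, with 0 lower, beside 5.44% and 5.55% of all genes called higher. Between control ages 4 were called higher and 0 lower as well, beside 10.9% and 18.8% of all genes. In Sfrp2-positive mesenchyme 3 were higher in DCKO and 1 in G1KO, with medians of 0.10 and -0.10, beside 14.2% and 10.9% of all genes. In Gdf5-positive cells 3 were higher in each mutant (medians 0.12 and 0.19), beside 21.3% and 12.6%. In Matn1-positive chondrocytes 4 and 6 were higher (medians 0.42 and 0.64), beside 21.7% and 13.3%. In these classes 0 were lower, and the shares of all genes count both directions. In the pooled skeletal cells Car9, a carbonic anhydrase of this list, was at 1.42 in DCKO and 2.13 in G1KO.

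Genes with the most similar pattern were sought among 5794 genes over 60 sums of cell class and library, by Pearson's r of log2 levels. The sums share 4 libraries and are not independent, so r is given as a description. Ldha was closest to the glycolytic enzymes Pgk1 (0.957) and Pgam1 (0.934), followed by Mif (0.902). Among the genes closest to Slc16a3 were Slc26a2 (0.916), the sulfate carrier of cartilage, and P4ha2 (0.899), a collagen prolyl hydroxylase. These are genes of glycolysis and of cartilage matrix production by their known roles. Ldhb was closest to Gpc3 (0.950), a glypican, and Bsg to Ckap4 (0.943) and Slc39a7 (0.936).

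The remaining members had weaker neighbours. Slc16a1 was closest to Snhg6 (0.876), Pdk1 to Plod3 (0.855), Pdk3 to Grhpr (0.871), Pdha1 to Abcf1 (0.893), Mpc1 to Rbm3 (0.884) and Mpc2 to Ankrd12 (0.847). Among the members themselves, Ldhb and Pdk3 had the highest r (0.838), followed by Bsg and Pdk1 (0.815) and Slc16a3 and Pdk1 (0.792), with Ldha at 0.754 to Slc16a1 and 0.751 to Slc16a3. The lowest were those of Mpc2 with Slc16a3 (-0.146) and Ldha (-0.103).

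Because Ldha and Slc16a3 lay on the same side of control in several classes, their promoters were read on both strands for ACGTG. This is a form of the core bound by hypoxia-inducible factor, and the other form, GCGTG, was not counted. The windows, from RefSeq (GRCm38.p6), run 250 bases before to 50 after a gene's start, and a match on 1 strand overlaps 1 on the other within CACGTG. Of 32851 windows 19.6% hold at least 1 match. Windows were found for 9 of the 10 members (12 windows), Bsg having no entry, and 4 members had a match. The first window of Ldha had 5 matches at 3 places, 2 of them CACGTG, and 0.183% of windows hold as many. Slc16a1 had 3 at 2 places (1.73% of windows hold at least 3), Slc16a3 had 2 (8.21% hold at least 2) and Pdk3 had 1. The windows of Ldhb, Pdk1, Pdha1, Mpc1 and Mpc2, and the second window of Ldha, had 0. A window with 0 matches to ACGTG can still hold GCGTG, as that of Ldhb does. These windows are rich in G and C (67.3% for Ldha, 73.7% for Slc16a1 and 73.3% for Slc16a3, against a median of 52.7%). A match is a description of letters and not a bound site. The sequences are shown for the carriers and Ldha, which hold most of the matches, and for Ldhb, which lay on the opposite side, with each ACGTG or CACGT in capitals. They are chr7:46845554-46845853 (plus strand) for Ldha, chr3:104638414-104638713 (plus) for Slc16a1, chr11:120948817-120949116 (plus) for Slc16a3 and chr6:142507908-142508207 (minus) for Ldhb.
Ldha: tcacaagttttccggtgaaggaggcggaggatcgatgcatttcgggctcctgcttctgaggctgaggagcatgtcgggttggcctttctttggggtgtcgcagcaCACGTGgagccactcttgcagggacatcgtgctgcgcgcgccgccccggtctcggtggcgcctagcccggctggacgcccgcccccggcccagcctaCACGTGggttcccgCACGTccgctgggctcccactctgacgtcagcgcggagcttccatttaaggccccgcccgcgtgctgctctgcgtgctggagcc
Slc16a1: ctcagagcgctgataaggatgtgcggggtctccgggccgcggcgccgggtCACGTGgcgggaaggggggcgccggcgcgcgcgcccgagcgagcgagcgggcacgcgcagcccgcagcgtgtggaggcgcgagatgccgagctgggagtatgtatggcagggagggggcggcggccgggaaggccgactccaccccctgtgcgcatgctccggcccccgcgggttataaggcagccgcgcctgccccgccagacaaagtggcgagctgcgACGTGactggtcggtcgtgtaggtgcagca
Slc16a3: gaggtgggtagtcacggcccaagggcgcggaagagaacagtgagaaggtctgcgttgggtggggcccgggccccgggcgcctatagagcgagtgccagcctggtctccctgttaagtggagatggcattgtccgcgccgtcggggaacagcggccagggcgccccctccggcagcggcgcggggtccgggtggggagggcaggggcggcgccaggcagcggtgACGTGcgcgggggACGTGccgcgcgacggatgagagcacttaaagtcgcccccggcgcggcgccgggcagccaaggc
Ldhb: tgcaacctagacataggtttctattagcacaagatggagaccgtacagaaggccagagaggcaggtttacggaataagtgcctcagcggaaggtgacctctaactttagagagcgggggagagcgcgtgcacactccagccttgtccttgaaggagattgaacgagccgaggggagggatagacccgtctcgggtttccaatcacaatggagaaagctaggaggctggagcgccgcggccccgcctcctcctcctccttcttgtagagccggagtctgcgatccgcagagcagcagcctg

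In the mouse assembly mm10 (GRCm38), Ldha lies at chr7:46841475-46855627 and Ldhb at chr6:142490249-142507957, while Slc16a1 lies at chr3:104638668-104658462 and Slc16a3 at chr11:120948480-120960868. Pdk3 (chrX:93764607-93832201) and Pdha1 (chrX:160122209-160138413) are the X-linked members. Reads shared with processed copies of Ldha and Mpc1, which are not among the genes in the files, could not be assessed.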

How the data were processed

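Raw UMI counts per gene and barcode were deposited by the authors for 4 libraries, made with Cell Ranger 6.1.2 per the file headers on mm10 per the labels, and hold 84188147 to 100344565 UMIs per library. Kept cells had 200 to 6000 detected genes, and mitochondrial genes gave no more than 10% of their UMIs. Cells were assigned in a fixed order to 15 classes by marker UMIs, first match taken. Levels were not given for epidermal cells (under 20 cells). Between 1292 and 3478 cells per library passed no gate and were left out of the skeletal pool, as were cells of the glial gate. Doublets were not removed. The share of cells passing gates of more than 1 lineage was 4.69%, 3.86%, 5.08% and 3.90%.

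UMIs were summed per class and library and divided by total UMIs (Python 3.11.15, numpy 2.4.6, scipy 1.17.1, pandas 2.3.3, with figures in matplotlib 3.10.9). Shares have exact Clopper-Pearson intervals in the tables, and differences of 2 log2 ratios have Wald intervals. TMM factors came from edgeR 4.0.16 (R 4.3.3). Alternatives changed the cell filter, gates, depth of gating, doublets, scaling, averaging, minimum UMIs and fold. Gene coordinates are those of GENCODE for GRCm38, and 32158 of 32285 identifiers matched (99.6%). The members and gene lists were chosen with earlier results of these data known.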

Additional observations from a re-analysis of the deposited data

Results flagged for a closer look

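Mutant and control differed in opposite directions in different skeletal classes for 4 of the genes, with the intervals of both classes clear of 0, which is why these values are listed. Each value is the log2 ratio of mutant to control in 1 class minus that in Matn1-positive chondrocytes, with counting error only, and none of the differences was tested across embryos. In DCKO, Gdf5-positive cells differed from Matn1-positive chondrocytes by -0.52 for Ldha, by 0.31 for Ldhb and by -0.51 for Slc16a3. Ldha and Slc16a3 were thus lower and Ldhb higher in the Gdf5-positive class relative to cartilage. Sfrp2-positive mesenchyme of DCKO differed by -0.60 for Ldha, 0.35 for Ldhb, -1.03 for Slc16a3 and -0.19 for Bsg, although the Bsg ratio within the mesenchyme (-0.07) turned positive under TMM scaling.

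In G1KO, Gdf5-positive cells differed by -0.34 for Ldha (-0.38 to -0.30), 0.30 for Ldhb (0.22 to 0.39) and -0.59 for Slc16a3 (-0.74 to -0.45). Sfrp2-positive mesenchyme of G1KO differed by -0.47 for Ldha (-0.52 to -0.42) and -0.86 for Slc16a3 (-1.08 to -0.64). Other genes differed between classes but are not listed, because both classes lay on the same side or the interval of at least 1 of them included 0. Pdk1 in G1KO, for example, differed by -0.48 in both Gdf5-positive and Sfrp2-positive cells, where its own ratio to control was -0.08, and Bsg by -0.23 in Sfrp2-positive mesenchyme, where it was -0.05. All 12 differences listed kept their sign in 8 of 8 alternatives. The widest range was that of Slc16a3 in Gdf5-positive cells of DCKO, from -1.09 with stricter gates to -0.50. Both mutants share 1 control, so the pairs are not repeats of each other.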

How the results depend on the processing

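No called value reversed among the 120 results for which alternatives were computed. Of 1040 values under alternatives for 120 results, 805 kept within the interval of the original or, for counts, within 1.5 times, and 235 moved, 82 of them under TMM scaling; 56 changed sign, of which 9 had an original above 0.1 in size. Between control ages, 1 member passed 1.5-fold in the mean over skeletal classes, Ldhb at -0.60, while both carriers fell short of it, and 0 passed 2-fold. For Gdf5-positive cells against Matn1-positive chondrocytes, 0 passed 2-fold at E13.5 or at E14.5. At E14.5, 1 passed with 1000 to 6000 genes and at most 5% mitochondrial UMIs, 1 as a mean of CPM over cells, and, in alternatives added after seeing the data, 1 with a glial gate only for cells with a Sox10 UMI and 1 with no glial gate. The cause was not tested. TMM scaling moved all genes by 0.15 between ages, by -0.19 for Gdf5-positive cells against Matn1-positive chondrocytes at E14.5, and in DCKO by 0.14 in Gdf5-positive cells and 0.16 in Matn1-positive chondrocytes. The comparisons of mutants within classes, and their alternatives, were also added after seeing the data. Thinned gating left out 598 to 1123 cells per library with under 2000 UMIs. Low counts limit the erythroid, macrophage, endothelial and muscle values.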
